A study of Danio rerio with 18 samples.

Results

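The 3 pyruvate kinase genes and the hexokinase 1 gene of zebrafish larvae were followed through 18 whole-larva RNA-Seq samples. The 4 genes were taken by their Ensembl IDs, out of 32520 genes listed, without use of their values: PKLR (ENSDARG00000042010), a pair of genes that both carry the symbol PKM (ENSDARG00000099730 and ENSDARG00000099860, called PKM-99730 and PKM-99860 from here on) and HK1 (ENSDARG00000039452). All 4 were listed in every sample and passed the filter on low counts in all 3 comparisons. The samples were 6 of akr1a1a-KO larvae, 6 of wild type larvae treated with acrolein, and 6 of untreated wild type (WT) larvae, all collected at 120 hpf (hours post fertilization). Acrolein, a reactive aldehyde that the enzyme encoded by akr1a1a can reduce, was added from 24 hpf, and its concentration is not given in the labels. All larvae carried the Tg(fli1:EGFP) transgene, which marks endothelial cells. The paper describes medium with or without PTU, which blocks pigment formation, and states its addition for the acrolein treatment. The akr1a1a-KO larvae come from 1 line made with CRISPR/Cas9, and the akr1a1a-KO and WT samples are pools of whole larvae, each of 1 clutch. In such samples, fewer cells of a type and less RNA per cell cannot be told apart.

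Hexokinase adds a phosphate to glucose and so opens glycolysis. Pyruvate kinase closes it, turning phosphoenolpyruvate into pyruvate with the gain of ATP. In mammals PKLR encodes the pyruvate kinase of liver and red blood cells, whose transcription follows sugar supply and feeding. PKM encodes the form of muscle, brain and most other tissues, and its transcript is spliced into the M1 and M2 forms. HK1 is the hexokinase most tissues use, with brain and red blood cells as its best known sites, and its protein can sit on the outer membrane of mitochondria. The questions here were how much of each transcript the larvae held and whether loss of akr1a1a or added acrolein moved them.

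Total estimated counts lay between 19878464 and 20463404 per sample, and every akr1a1a-KO total was above every WT total. At that depth 3 counts, taken as the detection floor, came to 0.147 to 0.151 CPM (counts scaled to the library total), far under the levels of all 4 genes. akr1a1a itself had 6 to 15 counts in akr1a1a-KO samples, 57 to 76 in acrolein-treated samples and 47 to 69 in WT samples. It fell by 2.75 on the log2 scale in akr1a1a-KO against WT larvae (SE 0.17, edgeR adjusted p = 1.13e-09), and those groups did not overlap. The library codes in the labels, read here as naming the sequencing lane, place all akr1a1a-KO samples on lane 3, acrolein-treated replicates 1 to 3 on lane 2 and 4 to 6 on lane 3, and all WT samples on lane 2. Lane and genotype therefore cannot be told apart between akr1a1a-KO and WT larvae.

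PKM-99860 was the most abundant of the 4 transcripts, and PKM-99730, PKLR and HK1 followed in that order. Levels of different genes are compared here only in TPM, transcript abundance scaled by transcript length and to a fixed total per sample. PKM-99860 had 307 to 450.4 TPM in akr1a1a-KO larvae (median 398), 329.6 to 436 in acrolein-treated larvae (median 375) and 353 to 462 in WT larvae (median 384). By mean TPM it ranked 308 of 32520 genes in akr1a1a-KO, 309 in acrolein-treated and 298 in WT larvae. PKM-99730 had 151 to 179 TPM in akr1a1a-KO larvae (median 166), 144 to 184 in acrolein-treated larvae (median 159.6) and 142 to 177 in WT larvae (median 165). The PKM genes never overlapped: PKM-99860 was 1.95 to 2.85 times PKM-99730 within a sample, with a median of 2.36 over the 18 samples.

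PKLR, the liver form, had 83.8, 73.1, 114, 83.7, 98.3 and 92.5 TPM in akr1a1a-KO replicates 1 to 6. In acrolein-treated replicates 1 to 6 it had 87.2, 70.9, 96.5, 128, 129 and 136 TPM. In WT replicates 1 to 6 it had 93.7, 91.4, 134, 114, 173 and 138 TPM. Its highest values were those of WT replicates 5 and 6 and acrolein-treated replicate 6, and no akr1a1a-KO sample reached the WT median of 124 TPM. PKLR lay below PKM-99730 in 17 of 18 samples, and the exception was WT replicate 5. The ranges of PKLR and PKM-99730 did not meet in akr1a1a-KO or acrolein-treated larvae but overlapped in WT larvae, so in WT these neighbours in the order did not differ beyond their spread.

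HK1 was the lowest of the 4. It had 27.0, 26.7, 26.6, 26.4, 26.9 and 22.7 TPM in akr1a1a-KO replicates 1 to 6. In acrolein-treated replicates 1 to 6 it had 29.5, 31.6, 28.6, 30.0, 30.9 and 29.0 TPM. In WT replicates 1 to 6 it had 27.8, 27.9, 26.6, 27.7, 29.2 and 27.3 TPM. In TPM all akr1a1a-KO samples were below all acrolein-treated samples, while 4 acrolein-treated samples were above the highest WT sample. HK1 made up 4.07 ± 0.454% of the summed pyruvate kinase TPM in akr1a1a-KO larvae, 4.68 ± 0.543% in acrolein-treated larvae and 4.09 ± 0.244% in WT larvae (SD, n = 6 each).

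**Figure D1:**
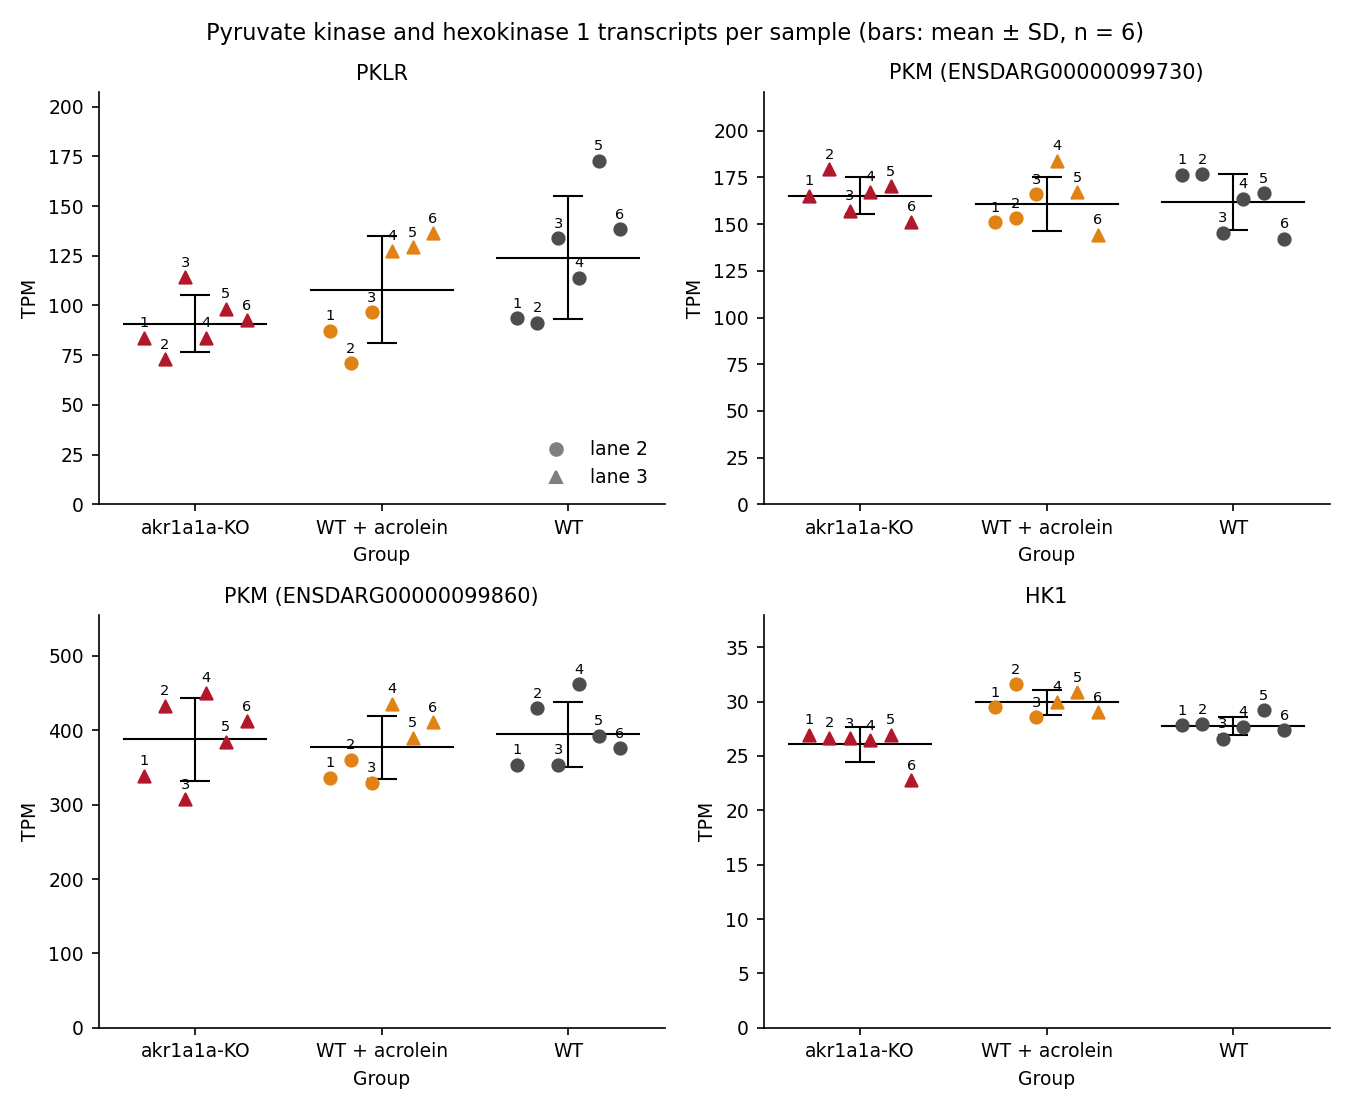
TPM (y axis, from 0) of PKLR, both PKM genes and HK1 in every sample of akr1a1a-KO, acrolein-treated WT and WT larvae. Numbers are replicate numbers, circles are lane 2 and triangles lane 3, and bars are means with SD (n = 6). PKLR ranged from 70.9 to 173 TPM, and HK1 from 22.7 to 31.6 TPM.

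The spread between samples differed widely among the 4 genes. Within groups, the SD of log2 CPM was 0.335 for PKLR, larger than that of 95.9% of 998 genes within 0.5 log2 units of its level, whose median SD was 0.0962. For PKM-99860 it was 0.192, larger than that of 79.1% of 148 genes of like level. For PKM-99730 it was 0.104, larger than that of 49.8% of 496 such genes. HK1 had an SD of 0.0632, and only 15.05% of 1575 genes of like level and 2.96% of all 23223 genes tested had a smaller one. A difference of a given size was therefore harder to detect for PKLR than for HK1.

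Of the pyruvate kinase TPM, PKM-99860 took 59.97 ± 4.24% in akr1a1a-KO larvae, 58.4 ± 2.07% in acrolein-treated larvae and 57.9 ± 3.42% in WT larvae (SD, n = 6 each). PKM-99730 took 25.7 ± 1.93% in akr1a1a-KO, 25.1 ± 2.45% in acrolein-treated and 23.9 ± 2.51% in WT larvae. PKLR took 14.3 ± 3.13% in akr1a1a-KO larvae, 16.5 ± 2.72% in acrolein-treated larvae and 18.2 ± 4.24% in WT larvae, with ranges of 10.7 to 19.7%, 12.1 to 19.7% and 13.1 to 23.6% that overlapped. The sum of the 3 genes was 644 ± 50.3 TPM in akr1a1a-KO, 646 ± 71.8 in acrolein-treated and 680.4 ± 50.1 in WT larvae (SD, n = 6 each), again with overlapping ranges. So the M-type genes supplied most of the transcript in all groups, and the share that varied most relative to its size was that of PKLR.

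**Figure D2:**
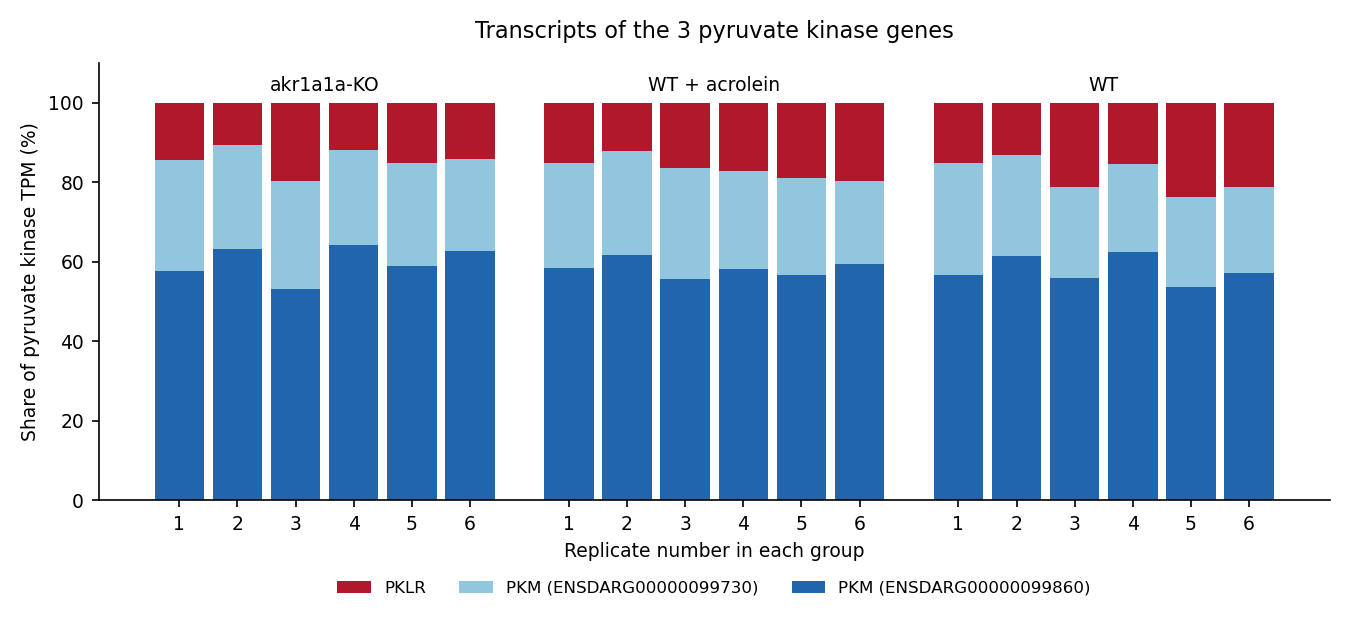
Share of the summed pyruvate kinase TPM (y axis, percent) held by PKLR, PKM-99730 and PKM-99860 in each sample, by replicate number (x axis) within akr1a1a-KO, acrolein-treated WT and WT larvae. PKM-99860 held 53.1 to 64.2% in every sample, and PKLR held 10.7 to 23.6%.

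The reads behind PKM-99730 carry an uncertainty that those of PKLR and HK1 do not show, and those of PKM-99860 hardly show. The estimated counts of PKLR and HK1 were whole numbers in all 18 samples, and those of both PKM genes were not whole in any sample (tolerance 0.001). The counts of PKM-99860 were still whole to the first decimal place in every sample. PKM-99730 had counts such as 4322.39 in akr1a1a-KO replicate 1. Estimated counts that are not whole arise where reads are divided among several targets, and which targets shared reads cannot be read from these values. In akr1a1a-KO replicate 3, PKM-99730 had 4279.08 and PKM-99860 9411 after rounding, so their fractions did not add up to a whole count. How far the PKM genes shared reads with each other, rather than with other targets, is not known. The ratio of count to TPM follows the mean length of the transcripts that reads were assigned to. It was scaled to the median ratio of each sample and then to the gene's mean over all samples. So scaled, it stayed between 0.996 and 1.00 for PKLR, PKM-99860 and HK1. For PKM-99730 it ranged from 0.914 to 1.07, so its reads were assigned to transcripts of differing mean length from sample to sample. The groups overlapped in this ratio for all 4 genes in all 3 comparisons, where 2.09% of 17081 genes did not overlap between akr1a1a-KO and WT larvae.

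In akr1a1a-KO against WT larvae, none of the 4 genes passed an adjusted p of 0.05 in edgeR's quasi-likelihood test, where 16.2% of the 23223 genes tested did (8.19% higher and 7.96% lower). Nor was any of the 4 without overlap between these groups, in TPM or in CPM, where 7.36% and 7.45% of all genes were. DESeq2 and limma on log2(TPM + 1) also called none of the 4. PKLR was the only one with an unadjusted p under 0.05, as 29.8% of all genes had. It averaged 90.9 ± 14.2 TPM in akr1a1a-KO larvae and 124 ± 30.9 TPM in WT larvae (SD, n = 6 each), a log2 fold change of -0.39 (SE 0.17, 95% interval -0.75 to -0.04, adjusted p = 0.128 from edgeR). All 6 akr1a1a-KO samples were below the WT median, and 3 of them were below the lowest WT sample. Permuting the group labels exactly (two-sided) gave p = 0.0368 on TPM and p = 0.0584 on CPM.

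The call for PKLR in akr1a1a-KO larvae changed with terms added to the model. With the replicate number as a block it was -0.37 with an adjusted p of 0.0114, and 20.8% of all genes passed in that edgeR fit. Same-numbered akr1a1a-KO and WT samples are separate clutches that hardly varied together over all genes (r = 0.0387 to 0.131). The block therefore rests on no known pairing in this comparison. With a lane covariate it was -1.03 with an adjusted p of 0.0177. That covariate can be estimated only from the acrolein-treated samples, in which PKLR was 0.65 log2 units higher in replicates 4 to 6 (lane 3) than in replicates 1 to 3 (lane 2). In WT larvae, all on lane 2, PKLR was likewise 0.41 log2 units higher in replicates 4 to 6, and in akr1a1a-KO larvae, all on lane 3, it was 0.11 units higher. Without any single sample, the log2 fold change stayed between -0.47 and -0.27 and its adjusted p between 0.0732 and 0.297.

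The other 3 genes were close to WT levels in akr1a1a-KO larvae. PKM-99730 averaged 165 ± 9.90 TPM in akr1a1a-KO and 162 ± 14.95 TPM in WT larvae (SD, n = 6 each), a log2 fold change of 0.09 with a 95% interval of -0.04 to 0.21 (edgeR adjusted p = 0.358). PKM-99860 averaged 388 ± 55.6 TPM in akr1a1a-KO and 395 ± 43.6 TPM in WT larvae (SD, n = 6 each), a log2 fold change of 0.03 with an interval of -0.18 to 0.24 (edgeR adjusted p = 0.861). For HK1 the log2 fold change was -0.03 with an interval of -0.12 to 0.06 (edgeR adjusted p = 0.683). HK1 in TPM gave 26.1 ± 1.64 in akr1a1a-KO against 27.8 ± 0.846 in WT larvae (exact two-sided permutation test, p = 0.0108), but in CPM it gave 79.95 ± 4.81 against 81.6 ± 2.32 (exact p = 0.489). TPM were not scaled between samples: over all genes, their median log2 fold change in this comparison was -0.0487, against -0.000739 for the scaled counts. Of all calls in this comparison 50.7% were higher in akr1a1a-KO larvae with scaled counts, 38.8% with counts scaled to the library total alone and 32.8% with limma on log2(TPM + 1).

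Acrolein left all 4 genes short of the threshold as well, where 0.0258% of the genes, or 6 genes, passed in edgeR. DESeq2 and limma also called none of the 4, and HK1 was the only one with an unadjusted p under 0.05, as 5.42% of all genes had. It averaged 29.9 ± 1.15 TPM in acrolein-treated and 27.8 ± 0.846 TPM in WT larvae (SD, n = 6 each). Its log2 fold change was 0.09 (SE 0.04, 95% interval 0.00360 to 0.181, adjusted p = 0.909 from edgeR), which is 6.62% higher. Exact two-sided permutation tests of 6 against 6 gave p = 0.0065 on TPM and p = 0.0108 on CPM. Same-numbered samples of these groups varied together, and HK1 was higher after acrolein in 6 of 6 such pairs, with TPM differences of 1.65 to 3.70. An exact test over all changes of sign, added after the data were seen, gave p = 0.0313, the smallest that 6 pairs allow, and the block with edgeR gave an adjusted p of 0.561. HK1 was 0.08 log2 units higher with only the acrolein-treated samples of lane 2 and 0.10 with only those of lane 3 (edgeR adjusted p = 0.521 and 1.00).

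PKLR averaged 108 ± 26.8 TPM in acrolein-treated and 124 ± 30.9 TPM in WT larvae (SD, n = 6 each), a log2 fold change of -0.22 with an interval of -0.57 to 0.14 (edgeR adjusted p = 0.930). It was lower after acrolein in 5 of 6 same-numbered pairs (exact sign-change test, p = 0.156), and the exception was pair 4. Its direction depended on the acrolein-treated samples used. With those of lane 2 alone, replicates 1 to 3, the log2 fold change was -0.57 (edgeR adjusted p = 0.246), and with those of lane 3 alone, replicates 4 to 6, it was 0.07 (edgeR adjusted p = 1.00). PKM-99730 differed by 0.01 with an interval of -0.11 to 0.14, and PKM-99860 by -0.08 with an interval of -0.29 to 0.13 (edgeR adjusted p = 0.992 and 0.951).

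Between akr1a1a-KO and acrolein-treated larvae, the widest difference relative to its error was that of HK1. In this comparison 13.8% of all genes passed in edgeR (6.46% higher and 7.29% lower) and none of the 4 did. HK1 was the only one with an unadjusted p under 0.05, as 27.1% of all genes had. It had a log2 fold change of -0.12 (SE 0.04, 95% interval -0.21 to -0.03, adjusted p = 0.0610). HK1 averaged 26.1 ± 1.64 TPM in akr1a1a-KO and 29.9 ± 1.15 TPM in acrolein-treated larvae (SD, n = 6 each). The groups did not overlap in TPM, as for 6.70% of all genes, and the exact permutation p of 0.0022 is the lowest that 6 against 6 samples allow. They overlapped in the TMM-scaled CPM, with 71.7 to 86.6 in akr1a1a-KO against 82.8 to 90.6 in acrolein-treated larvae (exact permutation p = 0.0130). In that measure 6.13% of all genes did not overlap. With counts scaled to the library total alone, edgeR called HK1 (log2 fold change -0.17, adjusted p = 0.0119). In that fit 1070 genes were called higher and 2430 lower, out of 23223. HK1 was the single one of the 4 genes called by DESeq2 (adjusted p = 0.0295). The same held in limma on log2(TPM + 1) (log2 fold change -0.19, adjusted p = 0.00657). In limma 881 genes were called higher and 2594 lower, out of 23223, and the median of all genes was -0.0628. Of the limma calls 25.4% were higher, against 47.0% in edgeR. Without akr1a1a-KO replicate 5, edgeR also called HK1 alone of the 4 (-0.15, adjusted p = 0.0275). The shares of all genes called by DESeq2 and without that replicate are not reported here. With the acrolein-treated samples of lane 3 alone, the lane of all akr1a1a-KO samples, it was -0.13 with an edgeR adjusted p of 0.135. PKLR differed by -0.17 (interval -0.53 to 0.18, edgeR adjusted p = 0.568). PKM-99730 differed by 0.07 (interval -0.05 to 0.20, edgeR adjusted p = 0.466) and PKM-99860 by 0.12 (interval -0.09 to 0.33, edgeR adjusted p = 0.502). Both akr1a1a-KO comparisons share the akr1a1a-KO samples, so their values are not independent of each other.

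**Figure D3:**
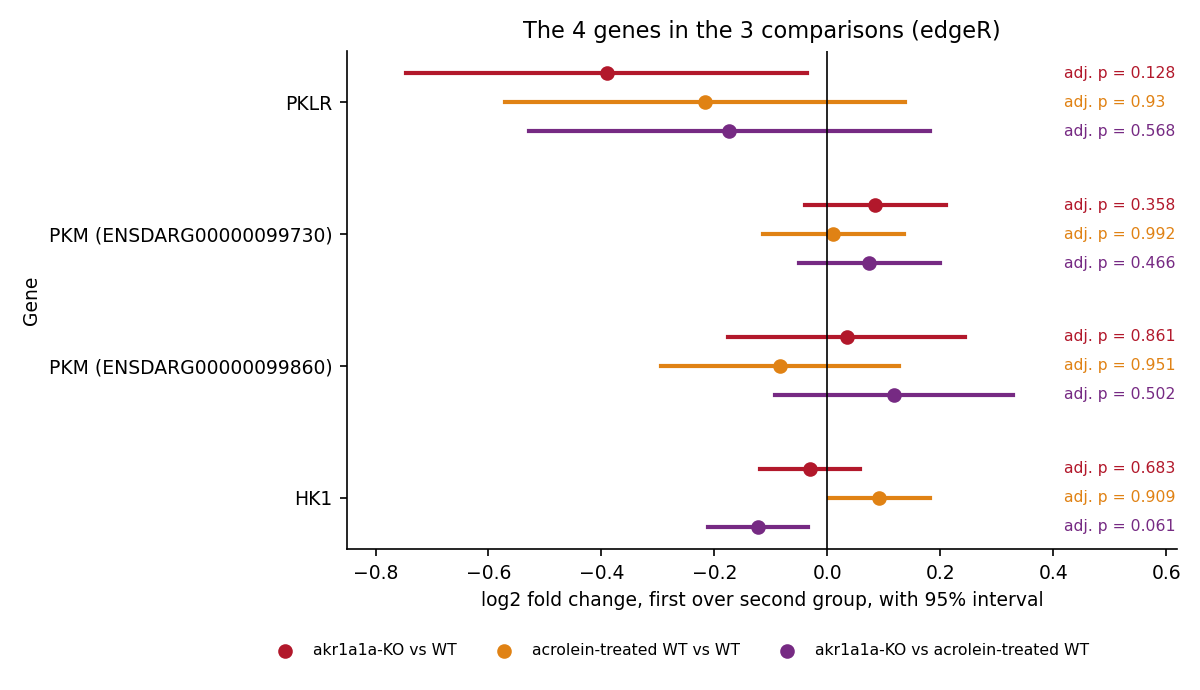
Log2 fold change (x axis) of each gene, first over second group, with its 95% interval from edgeR and the adjusted p beside it, for akr1a1a-KO against WT, acrolein-treated WT against WT and akr1a1a-KO against acrolein-treated WT. No adjusted p was under 0.05. The interval of PKLR in akr1a1a-KO against WT (-0.75 to -0.04) and those of HK1 against acrolein-treated larvae (-0.21 to -0.03) and after acrolein (0.00360 to 0.181) leave out 0 before adjustment.

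PKLR varied from sample to sample much as fabp10a, a liver gene, did. Over the 18 samples and 18463 genes with a symbol, the log2 CPM of PKLR was most like that of fabp10a, the fatty acid binding protein of fish liver (Pearson r = 0.90), habp2, a serine protease of blood plasma (r = 0.89) and epd, which encodes ependymin (r = 0.88). After the group means were removed, cyp2x8, a cytochrome P450 gene (r = 0.95), si:ch211-262h13.5 (r = 0.90) and fabp10a (r = 0.89) came first. Points in these correlations share libraries, totals and replicate numbers. fabp10a did not differ between akr1a1a-KO larvae (1383 to 2691 TPM) and WT larvae (1889.5 to 2839 TPM) beyond the test (log2 fold change -0.18, edgeR adjusted p = 0.405). The other hepatocyte markers did not share this likeness evenly. Over the 10 of them measured, r with PKLR ran from -0.09 for ambp to 0.90 for fabp10a, with a median of 0.05, and the next highest was CP, ceruloplasmin, with 0.54. The summed hepatocyte markers came to 7515 to 9983 TPM in akr1a1a-KO, 7644 to 10154 in acrolein-treated and 7891 to 9584 in WT larvae, none of them at 0 throughout, and their part in the values of PKLR was not tested.

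PKM-99730 was most like cox6b1, a subunit of cytochrome c oxidase (r = 0.81), CTH, an enzyme of cysteine synthesis (r = 0.79), and TPI1 (ENSDARG00000040988), triose-phosphate isomerase of glycolysis (r = 0.79). TPI1 also led after removal of the group means (r = 0.82), ahead of HIF1AN with 0.79. PKM-99860 was most like VDAC1, a channel of the outer mitochondrial membrane (r = 0.84), ZFR2 (r = 0.82) and si:ch211-214p13.8 (r = 0.79), and after removal of the group means like PPM1L (r = 0.87), crybb1l3 and zbtb22a (0.83 each). HK1 was most like lin7c and blvrb (0.79 each) and CGA (0.77), and after that removal like CCNH and FOXQ1 (0.81 each) and HOXB3 (0.79). Against each other, the PKM genes had r = 0.48, and the other pairs of the 4 genes lay between -0.19 and 0.07.

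The lists set the 4 genes apart in a similar way. For 24 other genes of glycolysis with a mean log2 CPM of at least 1, the median r was 0.40 with PKM-99730 and 0.38 with PKM-99860, with 20 of 24 above 0 for each, against 0.01 with PKLR and -0.11 with HK1. With 8 fast muscle markers the median r was 0.38 for PKM-99860 and 0.28 for PKM-99730, and -0.14 for PKLR. This was not particular to muscle. PKM-99860 had a median of 0.32 with neuron and 0.31 with red blood cell markers, but -0.41 with hepatocyte and -0.32 with intestine markers. PKM-99730 had 0.27 with intestine and -0.21 with neuron markers, and PKLR had 0.49 with photoreceptor markers. Over all genes the median r with each of the 4 lay between -0.01 and 0.01. With HK1 all 6 other measured genes of the hexokinase list had an r above 0 (0.31 to 0.49), HK2 among them with 0.44. All these list values are over the 18 samples and so include differences between groups. After removal of the group means, the highest r of the hexokinase list with HK1 was 0.38.

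**Figure D4:**
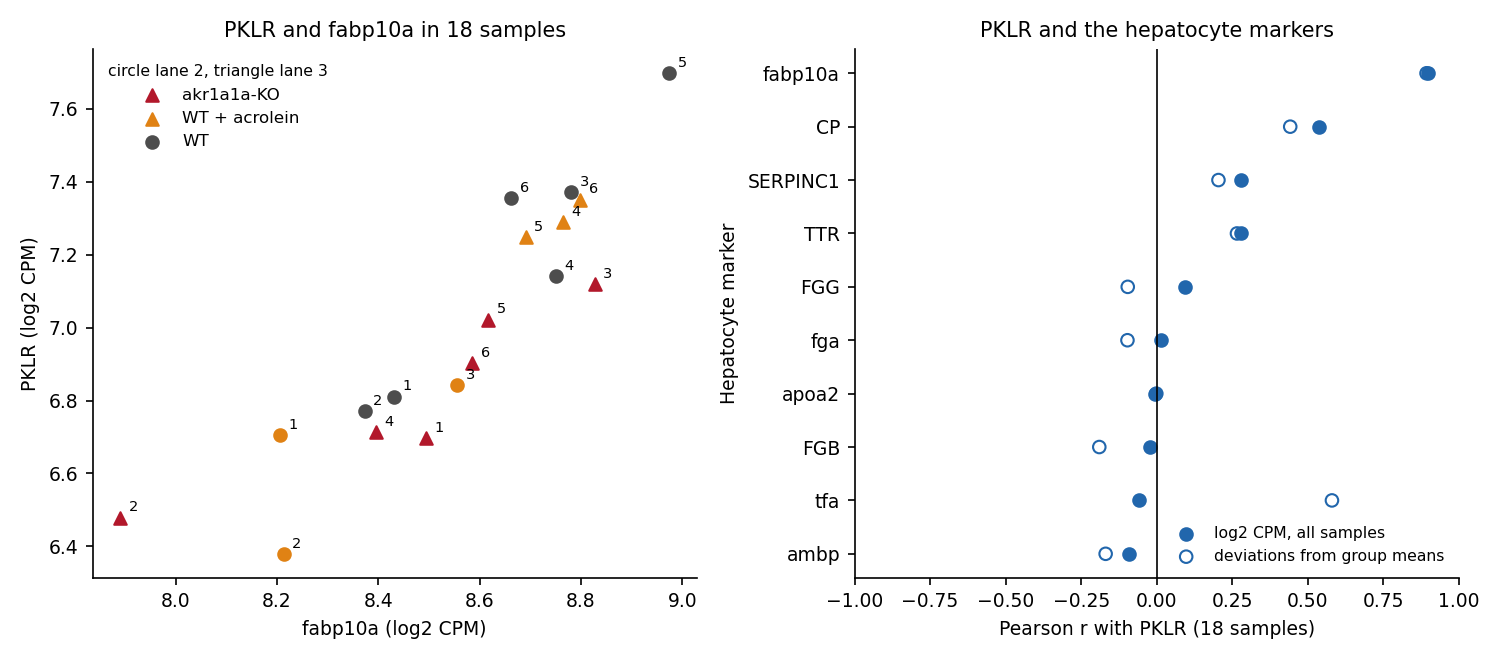
Left, log2 CPM of PKLR (y axis) against fabp10a (x axis) in the 18 samples, numbered by replicate and coloured by group. Right, Pearson r of PKLR with each of 10 hepatocyte markers (x axis), filled for log2 CPM over all samples and open for deviations from group means. The r with fabp10a was 0.90, while the median r over the 10 markers was 0.05.

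The steps of glycolysis between HK1 and the pyruvate kinases were examined with 25 other genes. Phosphoglycerate kinase was not covered, as no gene ID was matched to it. In akr1a1a-KO against WT larvae, 8 of the 25 passed in edgeR, where 16.2% of all genes did, 7 higher and 1 lower, and the list's median log2 fold change was 0.10 against -0.000739 for all genes. Among the genes that rose were both genes named PFKM, the phosphofructokinase of muscle (0.52 and 0.61, edgeR adjusted p = 0.00151 and 0.000395). Both named ALDOA, the aldolase of muscle (0.40 and 0.27), and PGAM2, the phosphoglycerate mutase of muscle (0.47), rose as well. So did a gene named TPI1 (0.24) and a gene named PFKP (0.16). The other genes named TPI1 (0.01) and PFKP (0.21) did not pass (edgeR adjusted p = 0.948 and 0.134). A gene named PFKL, the liver form of phosphofructokinase, fell by 0.17. PGAM2 had 239 to 277 TPM in akr1a1a-KO and 175 to 211 TPM in WT larvae, so these groups did not overlap. Of the fast muscle markers, all 8 measured had a positive log2 fold change, 2 passed (ckmb 0.27 and pvalb2 0.28), and their summed level was 75391 to 86955 TPM in akr1a1a-KO and 69635 to 83870 in WT larvae, with none at 0 throughout. With a lane covariate 0 of the 8 muscle markers passed. The part of these markers in the result was not tested. With a lane covariate, 4 of the 25 genes passed, where 1498 of all 23223 genes did. The split turned to 1 higher (a PFKM gene) and 3 lower (GAPDH and a PFKL gene among them).

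After acrolein, 0 of the 25 glycolysis genes passed in edgeR, where 0.0258% of all genes did. None had an unadjusted p under 0.05, as 5.42% of all genes had. The list's median log2 fold change was -0.03 against 0.000933 for all genes. DESeq2 and limma on log2(TPM + 1) also called 0 of them, where they called 23 and 2 genes in all. Against acrolein-treated larvae, where 13.8% of all genes passed, 6 of the 25 were higher in akr1a1a-KO larvae (both PFKM, both ALDOA, a TPI1 gene and PGAM2). None was lower. With the acrolein-treated samples of lane 3 alone 3 were called, all higher (a PFKM gene, an ALDOA gene and PGAM2), where 2050 genes were called in all.

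**Figure D5:**
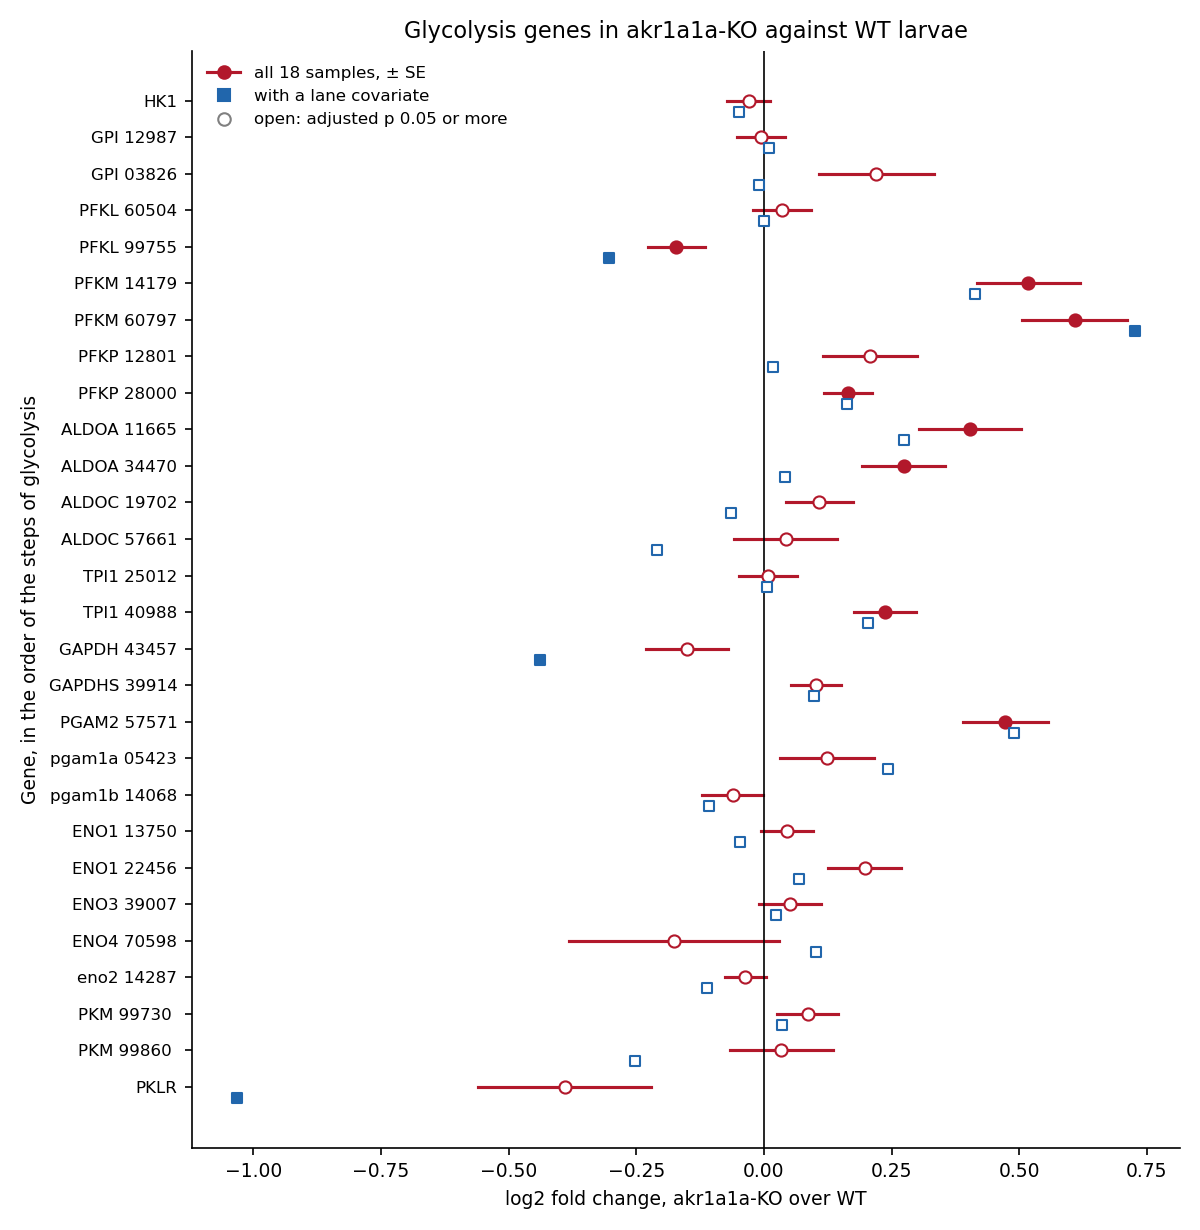
Log2 fold change (x axis) of HK1, 24 of the 25 other glycolysis genes and the 3 pyruvate kinase genes (y axis, in pathway order, with the last digits of their Ensembl IDs) in akr1a1a-KO against WT larvae. Circles with SE bars are the fit over all 18 samples, squares the fit with a lane covariate, and filled symbols have an adjusted p under 0.05. Of the 24 genes drawn, 8 are filled without the lane covariate and 3 with it, and PKLR is filled only with it (-1.03). The phosphoglycerate kinase step has no gene here.

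The hexokinase list held 7 other genes tested, which add phosphate to glucose, regulate that step or remove the phosphate. gckr, which encodes a regulatory protein of liver glucose phosphorylation in mammals, was the only one called in akr1a1a-KO against WT larvae. That 1 of 7 is close to the 16.2% of all genes called in this comparison. gckr was low, with 1.64 to 2.87 TPM in akr1a1a-KO and 0.387 to 1.87 TPM in WT larvae. It rose by 1.52 on the log2 scale (SE 0.33, edgeR adjusted p = 0.00323). With a lane covariate its log2 fold change was 0.55 and its adjusted p 0.602. HK2, the hexokinase of muscle and fat, averaged 5.13 ± 0.683 TPM in akr1a1a-KO and 5.17 ± 0.692 TPM in WT larvae (SD, n = 6 each). HKDC1, a close relative of HK1, averaged 9.85 ± 1.82 TPM in akr1a1a-KO and 12.9 ± 3.21 TPM in WT larvae, and did not pass (edgeR adjusted p = 0.118). By TPM, HK1 was thus above HKDC1 and HK2. After acrolein 0 of the 8 genes of the list, HK1 included, passed in edgeR, DESeq2 or limma. In edgeR 2 had an unadjusted p under 0.05, HK1 and HK2, both higher. Of all genes 0.0258% passed in edgeR after acrolein, and 5.42% had an unadjusted p under 0.05.

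Downstream of pyruvate kinase, 6 of 28 genes of pyruvate use were called in akr1a1a-KO against WT larvae, 5 higher and 1 lower, where 16.2% of all genes were called, and the list median was 0.07. LDHA, which turns pyruvate into lactate, had 215 to 261 TPM in akr1a1a-KO and 155 to 184 TPM in WT larvae, and rose by 0.60 (SE 0.07, edgeR adjusted p = 1.89e-05). PDK1, a kinase that switches pyruvate dehydrogenase off, had 14.5 to 18.9 TPM in akr1a1a-KO and 21.8 to 26.9 TPM in WT larvae, and fell by 0.44 (edgeR adjusted p = 0.00165). Neither pair of ranges met, and both genes still passed with a lane covariate (0.63 and -0.65). PDHB, a subunit of pyruvate dehydrogenase, rose by 0.18, ME2, a mitochondrial malic enzyme, by 0.23, ME1, the cytosolic malic enzyme, by 0.75, and a gene named GPT, alanine aminotransferase, by 0.43. With a lane covariate ME1 also passed (0.72), while PDHB, ME2 and GPT did not (edgeR adjusted p = 0.112, 0.0511 and 0.240). None of these 4 genes passed in limma on log2(TPM + 1). ME1 and GPT rose in counts but their TPM ranges overlapped, and in TPM ME1 averaged 7.27 ± 1.08 in akr1a1a-KO and 7.09 ± 1.91 in WT larvae (SD, n = 6 each). After acrolein 0 of 28 passed in edgeR, DESeq2 or limma, and 1 had an unadjusted p under 0.05. Of all genes 0.0258% passed in edgeR there, and 5.42% had an unadjusted p under 0.05.

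Of 24 genes for factors that act on PKLR transcription or on PKM transcription and splicing in mammals, 4 were called in akr1a1a-KO against WT larvae, a share close to the 16.2% of all genes, and the list median was 0.00128. The largest change was that of mlxipl, whose product ChREBP is the sugar-responsive activator of PKLR in mammalian liver. It had 3.63 to 5.76 TPM in akr1a1a-KO, 1.04 to 2.98 in acrolein-treated and 0.560 to 2.04 in WT larvae, and rose by 1.62 in akr1a1a-KO against WT larvae (SE 0.24, edgeR adjusted p = 0.000126). Its lowest akr1a1a-KO sample was above every sample of the other groups, although with a lane covariate its log2 fold change was 1.08 and its adjusted p 0.118. mlxipl and PKLR thus had differences of opposite sign in the same larvae, of which only that of mlxipl passed. MLX, the partner of ChREBP, rose by 0.27 and srebf2, a regulator of sterol synthesis, by 0.30, while ONECUT1, a liver transcription factor, fell by 0.23. With a lane covariate MLX passed (0.38, edgeR adjusted p = 0.0498), and srebf2 and ONECUT1 did not (adjusted p = 0.158 and 0.0967). Against acrolein-treated larvae, mlxipl (1.09) and srebf2 (0.34) were higher in akr1a1a-KO larvae. With a lane covariate srebf2 passed there too (0.33), and mlxipl did not (edgeR adjusted p = 0.0601). After acrolein 0 of 24 passed in edgeR, DESeq2 or limma, and none had an unadjusted p under 0.05 in edgeR. Of all genes 0.0258% passed in edgeR there, and 5.42% had an unadjusted p under 0.05.

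Markers of other cell types were read in the same fit, where 16.2% of all genes were called. Of 6 red blood cell markers, 3 passed and were higher in akr1a1a-KO than in WT larvae (alas2 1.76, SLC4A1 1.06 and epb41b 1.16). In all, 5 of the 6 had a positive log2 fold change and 1 a negative one (-0.51). Their summed level was 1016 to 1537 TPM in akr1a1a-KO and 248 to 1122 TPM in WT larvae. In WT replicates 1 to 6 the sum was 248, 267, 754, 1104, 1000 and 1122 TPM. Of 9 intestine markers 2 passed and were higher, with sums of 1772 to 2022 TPM in akr1a1a-KO and 1195 to 1967 TPM in WT larvae. Of the 9, 7 had a positive log2 fold change and 2 a negative one. Of 10 hepatocyte markers 1 passed, and it was higher (tfa, 0.50). Yet 8 of the 10 had a negative log2 fold change, and their median was -0.11. No neuron marker and 2 of 11 photoreceptor markers passed. With a lane covariate, 0 of the red blood cell, hepatocyte and photoreceptor markers passed. In that fit 1 intestine and 1 neuron marker passed, where 1498 of 23223 genes did. The median log2 fold change of the red blood cell markers was 1.03 with the covariate and 0.99 without it. None of these markers was at 0 in every sample, and their part in the values of PKLR, PKM and HK1 was not tested.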

How the data were processed

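Per the submitters' processing notes, the authors trimmed reads with Trim Galore 0.6.4 and quantified them with kallisto 0.4.6 against GRCz11. They deposited gene-level estimated counts and TPM for each of 18 samples, 6 per group, with 19878464 to 20463404 estimated counts per sample. The deposited TPM are scaled within each sample for transcript length.

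Estimated counts were rounded and fitted with edgeR 4.0.16 (R 4.3.3; TMM, filterByExpr, quasi-likelihood test, 1 mean per group, all 18 samples), with Benjamini-Hochberg adjustment over 23223 genes and a threshold of 0.05. The scripts were tested on simulated counts. CPM used the TMM-scaled library totals, and log2 CPM a prior count of 2. DESeq2 1.42.0, limma 3.58.1 on log2(TPM + 1) and log2(TPM + 0.1), other scalings and filters, a replicate block, a lane covariate and omission of each sample were alternatives. Single values were compared by exact permutation.

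The replicate numbers paired acrolein-treated with WT samples: over 23223 genes, deviations of same-numbered samples correlated with r = 0.249 to 0.603 in all 6 pairs. Per the study's figure legend, akr1a1a-KO and WT samples are separate clutches.

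Named genes were the 4 genes, akr1a1a, list genes called in any comparison and, for each of the 4, the 3 genes with the highest r (mean log2 CPM of at least 1). HK2, HKDC1 and the markers were named after their values were seen. Some genes are not reported here. The genes and lists were chosen with earlier results of these data known. Gene symbols came from a name table that matched 29201 of 32520 IDs, and the IDs named PKM were not told apart by it.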

Additional observations from a re-analysis of the deposited data

Results flagged for a closer look

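HK1 had 22.7 TPM in akr1a1a-KO replicate 6, the lowest of the 6 akr1a1a-KO samples and far from the next, at 26.4 TPM. In TPM the gap was 0.879 of the group's range, above the 95% critical value of Dixon's test for 6 samples. In CPM that sample had 71.7, and the other akr1a1a-KO samples ranged from 79.4 to 86.6. Among 27 groups of 6 values examined, this was the only such case. Chance alone passes that critical value in about 1 in 20 groups, so 1 case past it among 27 is not unusual. How rare a gap as wide as 0.879 is was not tested. The flag is in TPM, which were not scaled between samples. Without that sample, the log2 fold change of HK1 in akr1a1a-KO against acrolein-treated larvae was -0.0934, with an edgeR adjusted p of 0.142.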

How the results depend on the processing

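Of 300 values of the 4 genes under alternative settings, 289 stayed on the same side of the threshold, 11 passed it newly, and 18 had another sign without a call. PKLR in akr1a1a-KO against WT larvae passed with a replicate block (-0.37, edgeR adjusted p = 0.0114), with the block and only these groups (-0.37, adjusted p = 0.00573), with a lane covariate (-1.03) and with block and lane (-0.77, adjusted p = 0.0158), and against acrolein-treated larvae with block and lane (-0.35, adjusted p = 0.0455). HK1 in akr1a1a-KO against acrolein-treated larvae passed without TMM (-0.17) and with the block (-0.12, edgeR adjusted p = 0.0286). With the block 18.2% of all genes passed in that comparison. HK1 also passed in DESeq2 (-0.12) and in limma on log2(TPM + 1) (-0.19) and log2(TPM + 0.1) (-0.20). With single samples left out it lay between -0.15 and -0.0934 (edgeR adjusted p = 0.0275 without akr1a1a-KO replicate 5). ME1 in that comparison turned to -0.16 and -0.17 in the limma fits. The block changed no call of the 4 genes after acrolein. Over all genes, akr1a1a-KO samples hardly paired by number with WT samples (r = 0.0387 to 0.131, against a mean of -0.0153 for unlike numbers) or acrolein-treated samples (-0.0395 to 0.0988). PKLR itself was lower in akr1a1a-KO than in WT larvae in 6 of 6 same-numbered pairs, but these are separate clutches with no known pairing. All genes called in akr1a1a-KO against WT larvae numbered 3752, and 1498 with a lane covariate, 806 with block and lane. Against acrolein-treated larvae they numbered 3194, and 1980 with a lane covariate, 2050 with acrolein-treated samples of lane 3 alone. Glycolysis genes numbered 4 (not 8) with a lane covariate and 1 (lower) with block and lane against WT larvae, and 3 (not 6) with lane or lane 3 alone against acrolein-treated larvae. After acrolein 6 genes passed, and 1 with only these groups, 32 with the block, 137 with the block and only these groups, 20 with lane, 37 with block and lane, 23 in DESeq2, 2 in limma with either pseudocount, 13 and 0 with lane 2 or lane 3 alone, and 3 to 10 with single samples left out. The fits with block and lane, or with the block and only the groups compared, and the glycolysis count with lane 3 alone were added after the data were seen. The cause of these changes was not tested. Each of the 4 genes had at least 1405 estimated counts in every sample.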
